A study of Mus musculus with 12 samples.

Results

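Whole lungs of MMTV-PyMT mice were compared, 4 labelled S1pr1 KO against 4 labelled WT, out of 12 libraries in all. MMTV-PyMT is a mouse line in which the mammary tumour virus promoter drives the polyoma middle T oncogene, so that mammary tumours arise and spread to the lung. All lungs were taken at 4.5 months and carry the treatment label of lung metastasis. The S1pr1 KO group carries MMTV-Cre;S1pr1fl/fl and MMTV-PyMT, and the WT group MMTV-Cre and MMTV-PyMT by the study's design, although its strain field names MMTV-PyMT alone. MMTV-Cre and MMTV-PyMT are thus shared by all groups. The other 4 libraries, labelled C3 KO, came from mice with MMTV-Cre, a C3Tdt allele and MMTV-PyMT. They entered through the shared estimate of spread, as levels set beside single genes and in a comparison with S1pr1 KO. The MMTV promoter drives Cre mainly in mammary epithelium, so lung cells need not be the cells in which S1pr1 was deleted. Nothing in the labels says that the libraries of a group come from separate animals, so p-values measure only the spread between these samples, which may be technical.

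S1pr1 is a receptor for sphingosine-1-phosphate (S1P), a lipid kept at a high level in blood and lymph and at a low level inside tissues. On lymphocytes the receptor guides exit from lymphoid organs along that gradient, and on endothelium it maintains junctions and restrains sprouting. S1pr2, S1pr3, S1pr4 and S1pr5 are related receptors, of which S1pr4 is known mainly from lymphoid and myeloid cells and S1pr5 from natural killer (NK) cells.

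Total counts of the 12 libraries ranged from 32274797 to 53063470, and no 2 libraries of a group were as alike as sampling noise allows (chi-square per degree of freedom of at least 13.6). Between WT and S1pr1 KO libraries Pearson's r of log2 CPM (the count of a gene relative to the scaled library total) ranged from 0.963 to 0.981, against 0.980 to 0.987 within WT and 0.979 to 0.988 within S1pr1 KO, across genes that are not independent replicates. The first principal component of the 8 libraries held 33.4% of the variance, with WT between -50.1 and -23.5 and S1pr1 KO between 15.01 and 46.94. Lung markers were present in all 8, for example Sftpc, a surfactant protein of alveolar type 2 cells, between 9411 and 12760 CPM and Pecam1, an endothelial adhesion molecule, between 829 and 996 CPM. The milk protein gene Wap, a mammary marker, stood at 0 to 0.199 CPM.

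S1pr1 (ENSMUSG00000045092, chromosome 3 from 115504082 to 115508721 of GRCm39, minus strand) had 295, 491, 318 and 330 CPM in WT 1 to 4. S1pr1 KO 1 to 4 held 132, 366, 142 and 154 CPM. The library labelled S1pr1 KO 2 thus lay inside the WT range, while the other 3 lay below every WT library. The log2 fold change was -0.85 (standard error, SE, 0.29) and did not pass the test (edgeR adjusted p = 0.153). S1pr1 passed in limma voom, which down-weights libraries that deviate (adjusted p = 0.0198), and not in DESeq2 (adjusted p = 0.164). Without S1pr1 KO 2 it was -1.33 (edgeR adjusted p = 0.0221), a value that is circular because that library was singled out by its S1pr1 level. Every S1pr1 KO value below includes the library labelled S1pr1 KO 2.

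A long noncoding RNA, ENSMUSG00000120078 (chromosome 3 from 115430736 to 115435238, minus strand), lies 68840 bases from S1pr1 and split the libraries in the same way. It was at 0.445, 0.411, 0.644 and 0.274 CPM in WT and at 6.12, 0.298, 5.10 and 5.11 CPM in S1pr1 KO. S1pr1 KO 2 again lay inside the WT range, and the other 3 libraries were high. The gene passed (log2 fold change 3.22, SE 0.65, edgeR adjusted p = 0.0394), although only in 3 of the 12 fits that leave out 1 library. ENSMUSG00000120078 did not pass in limma voom (adjusted p = 0.0933) or with the 8 libraries alone (edgeR adjusted p = 0.0591). Within 5 Mb of S1pr1 on either side 37 genes were tested, and this RNA was the only one called, against 1.35% of all genes tested. Frrs1, a ferric reductase relative 1.15 Mb away, divided the libraries differently, at 17.4, 19.7, 16.1 and 15.8 CPM in WT and 5.93, 6.56, 15.01 and 7.09 CPM in S1pr1 KO. There S1pr1 KO 3 was close to WT and S1pr1 KO 2 was low, and the groups did not overlap (log2 fold change -0.998, SE 0.252, edgeR adjusted p = 0.0691).

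**Figure D1:**
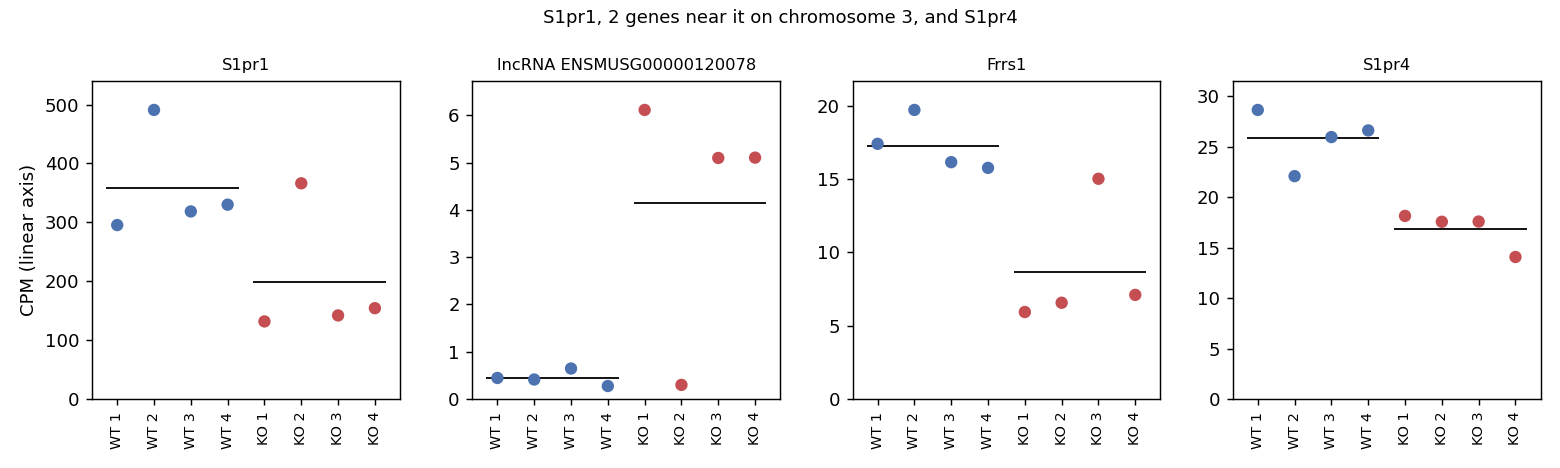
CPM (linear axes from 0) of S1pr1, the long noncoding RNA ENSMUSG00000120078, Frrs1 and S1pr4 in each WT (blue) and S1pr1 KO (red) library, with lines at group means. S1pr1 KO 2 is level with WT for S1pr1 and the noncoding RNA, S1pr1 KO 3 is close to WT for Frrs1, and all 4 S1pr1 KO libraries are below WT for S1pr4.

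Of 1037 genes tested on chromosome 3, 20 were called (1.93%, against 1.35% of all genes tested). Chromosomes 14, 17 and 9 had higher shares, at 2.39%, 2.28% and 1.96%. Selenbp2, a selenium-binding protein 20.9 Mb from S1pr1, was at 2.69, 1.78, 2.40 and 2.39 CPM in WT and 20.5, 19.9, 2.52 and 12.4 CPM in S1pr1 KO. Tmod4, a tropomodulin that caps actin filaments, and Tpm3-rs7, a tropomyosin-related sequence on chromosome 14, were likewise near WT in S1pr1 KO 3. Tmod4 was at 1.22 to 2.06 CPM in WT and 7.29, 9.56, 1.91 and 4.69 CPM in S1pr1 KO. Tpm3-rs7 was at 30.6 to 34.4 CPM in WT and 245, 238, 31.6 and 120 CPM in S1pr1 KO. For all 3, S1pr1 KO 3 stood at the WT level and S1pr1 KO 1 and 2 were highest. They passed with log2 fold changes of 2.58 (SE 0.49), 1.77 (SE 0.38) and 2.32 (SE 0.45) and edgeR adjusted p of 0.0329, 0.0462 and 0.0342. Selenbp2, Tmod4 and Tpm3-rs7 did not pass in limma voom (adjusted p of 0.202, 0.165 and 0.173), and with the 8 libraries alone Selenbp2 passed (edgeR adjusted p = 0.0459) while Tmod4 and Tpm3-rs7 did not (0.0685 and 0.0540). Arsj, an arylsulfatase gene on the same chromosome, fell evenly, from 6.999 to 8.05 CPM in WT to 1.54 to 2.04 CPM in S1pr1 KO (log2 fold change -2.15, SE 0.33, edgeR adjusted p = 0.0145).

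Among the S1P receptors edgeR and DESeq2 each called 1, S1pr4, while limma voom called both S1pr4 and S1pr1. Per kilobase of gene length, WT lungs held S1pr1 at 117 ± 29.5 FPKM, S1pr3 at 17.8 ± 2.74, S1pr4 at 10.8 ± 1.12, S1pr2 at 7.34 ± 0.88 and S1pr5 at 3.53 ± 1.76 FPKM (SD, n = 4). S1pr4 was at 28.6, 22.1, 25.9 and 26.6 CPM in WT and 18.1, 17.6, 17.6 and 14.1 CPM in S1pr1 KO, with no overlap and S1pr1 KO 2 at the level of the other 3. It fell by 0.62 on the log2 scale (SE 0.13, edgeR adjusted p = 0.0466), in 2 of 12 fits without a library. S1pr2 (-0.03, SE 0.08), S1pr3 (-0.04, SE 0.15) and S1pr5 (0.09, SE 0.47) did not pass, with edgeR adjusted p of 0.898, 0.918 and 0.948. Genes that make, degrade or export S1P (16 tested, median log2 fold change -0.02) and genes of S1P receptor signalling (17 tested, median -0.14, 16 below 0) had 0 calls by edgeR, with 4 and 3 at an unadjusted p under 0.05. DESeq2 called 2 and 0 of them and limma voom 2 and 1. Over all genes tested, 18% had an unadjusted p under 0.05, DESeq2 called 6.32% and limma voom 4.59%. Values in these lists included Sphk1, the kinase that makes S1P (-0.41, SE 0.12), and Grk2, a kinase that desensitises receptors (-0.25, SE 0.08), with edgeR adjusted p of 0.103 and 0.141.

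Because S1pr1 differed between libraries, each S1pr1 KO library was set beside genes called without it. Without S1pr1 KO 2 the fit called 128 genes, and at 115 of these (89.8%) the library left out lay outside the WT range on the side of the call. It was nearer the mean of the other S1pr1 KO libraries than the WT mean at 92 of them (71.9%). The same counts were 74 and 63 of 80 for S1pr1 KO 1, 51 and 44 of 60 for S1pr1 KO 3, and 2 and 2 of 2 for S1pr1 KO 4. S1pr1 KO 2 stood on the S1pr1 KO side for most of the genes called without it. Median positions between WT (0) and the other knockouts (1) were 0.76, 0.73, 0.85 and 0.90 for S1pr1 KO 1 to 4, lowest for S1pr1 KO 2. The genes were called against the same WT libraries that the placing used. No WT library was left out and placed, so the counts have no baseline. No C3 KO library was placed in this way, so these counts cannot tell S1pr1 KO from the other knockout group. The 36 genes at which S1pr1 KO 2 was nearer WT included S1pr1 itself, the noncoding RNA beside it, and the ciliary genes Dnah12, Ccdc113 and Rsph10b.

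Over all genes, 274 of 20229 passed in S1pr1 KO against WT (1.35%), 166 higher (0.821%) and 108 lower (0.534%). The groups did not overlap at 2295 genes (11.3%), and 3651 genes (18%) had an unadjusted p under 0.05. DESeq2 called 6.32% of the genes tested and limma voom 4.59%. These shares are the background for the counts of list members below. Between S1pr1 KO and C3 KO the same edgeR fit called 0 of 20229 genes. No gene named below therefore separated the knockout groups by this test. Calls depended on single libraries: of the 274 genes, 5 remained called without WT 4 (Gm28438, Gramd1a, Scart1, Wdfy1 and mt-Nd3) and 2 without S1pr1 KO 4 (Gm28438 and Scart1). Without WT 1, 2 or 3 the genes that remained numbered 43, 49 and 58, and without S1pr1 KO 1, 2 or 3 they numbered 70, 106 and 50. Leaving out C3 KO 1, 2, 3 or 4, which only share the spread, gave 185, 204, 300 and 571 calls, of which 170, 184, 243 and 274 were among the 274. No call changed direction in these fits. Where a number of fits stands beside a value below, it is the number of these 12 in which the gene passed.

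Gramd1a, a sterol transporter at contacts of the endoplasmic reticulum and plasma membrane (chromosome 7 from 30829552 to 30855321), changed evenly. It was at 110, 115, 110 and 111 CPM in WT and 83.4, 79.6, 83.0 and 77.2 CPM in S1pr1 KO, which do not overlap. It fell by 0.46 on the log2 scale (SE 0.05, edgeR adjusted p = 0.00716, 11 of 12 fits). Sgk1, a serum- and glucocorticoid-induced kinase, was at 213 to 245 CPM in WT and 117 to 162 CPM in S1pr1 KO (log2 fold change -0.72, SE 0.14, edgeR adjusted p = 0.0357, 4 of 12 fits). Both were chosen after their values were seen.

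Processed pseudogenes, which are intronless copies of messenger RNAs, were called lower at 30 of 924 tested (3.25%), against 0.398% of protein coding genes. At 15 of the 30 the log2 difference was over 3. C3 KO 1 to 4 were nearer the S1pr1 KO mean than the WT mean at 20, 15, 15 and 10 of the 30. Atp6v0c-ps2 (chromosome 6 from 37783021 to 37783485) is a copy of Atp6v0c, the proteolipid of the vacuolar proton pump. It was at 35.4, 32.2, 32.9 and 31.6 CPM in WT and 0.284, 0.373, 0.531 and 0.297 CPM in S1pr1 KO. Its parent Atp6v0c was at 87.0, 84.3, 80.1 and 79.1 CPM in WT and 106, 111, 105 and 106 CPM in S1pr1 KO. The copy fell by 6.48 (SE 1.40) and the parent rose by 0.37 (SE 0.08) on the log2 scale, with edgeR adjusted p of 0.0462 and 0.0430.

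Rnps1-ps and Tdg-ps2 had the same layout. Rnps1-ps, a copy of a splicing factor gene, was at 15.1 to 15.6 CPM in WT and 0.124 to 0.398 CPM in S1pr1 KO, while Rnps1 was at 43.2 to 48.3 and 62.5 to 68.5 CPM. Tdg-ps2, a copy of the thymine DNA glycosylase gene, was at 3.885 to 5.404 and 0.564 to 0.944 CPM, while Tdg was at 18.9 to 20.5 and 29.9 to 34.1 CPM. In each pair the WT and S1pr1 KO libraries did not overlap for either gene. Rnps1 rose by 0.50 (SE 0.11, edgeR adjusted p = 0.0493) and Tdg by 0.70 (SE 0.13, edgeR adjusted p = 0.0314). Of 221 pseudogenes named after a tested parent, 10 were called lower and 1 higher, and in these 3 pairs the parent was called higher.

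The annotated transcripts of each pair are almost the same, so reads can be counted to either gene, and all 6 values are uncertain for that reason. Copy and parent together had means of 115.6 CPM in WT and 107.4 CPM in S1pr1 KO for Atp6v0c. The same sums in WT and S1pr1 KO were 61.99 and 66.19 CPM for Rnps1, and 24.35 and 32.89 CPM for Tdg. In GENCODE's GRCm38 transcripts Atp6v0c-ps2 matched Atp6v0c at 99.8% of 465 aligned bases (1 mismatch), Rnps1-ps matched Rnps1 at 99.4% of 843 (5 mismatches) and Tdg-ps2 matched Tdg at 99.2% of 1194 (9 mismatches). The 60 coding bases with the most differences are shown for each pair, with differing bases in capitals.
Atp6v0c: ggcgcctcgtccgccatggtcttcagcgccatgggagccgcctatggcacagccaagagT
Atp6v0c-ps2: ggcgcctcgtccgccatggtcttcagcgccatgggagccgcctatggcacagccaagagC
Rnps1: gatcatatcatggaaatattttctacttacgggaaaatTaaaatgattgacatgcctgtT
Rnps1-ps: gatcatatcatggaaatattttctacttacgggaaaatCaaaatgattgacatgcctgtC
Tdg: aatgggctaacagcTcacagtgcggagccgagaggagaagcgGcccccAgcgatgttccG
Tdg-ps2: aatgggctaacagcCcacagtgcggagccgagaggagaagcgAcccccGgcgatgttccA
The 4 C3 KO libraries stood at 0.578, 0.322, 0.555 and 32.7 CPM for Atp6v0c-ps2, so 3 of them were at the S1pr1 KO level and 1 at the WT level. Among unnamed copies Gm8730 was at 139 to 146 CPM in WT and 3.77 to 5.82 CPM in S1pr1 KO, and Gm15459 at 191 to 317 and 11.1 to 27.0 CPM.

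**Figure D2:**
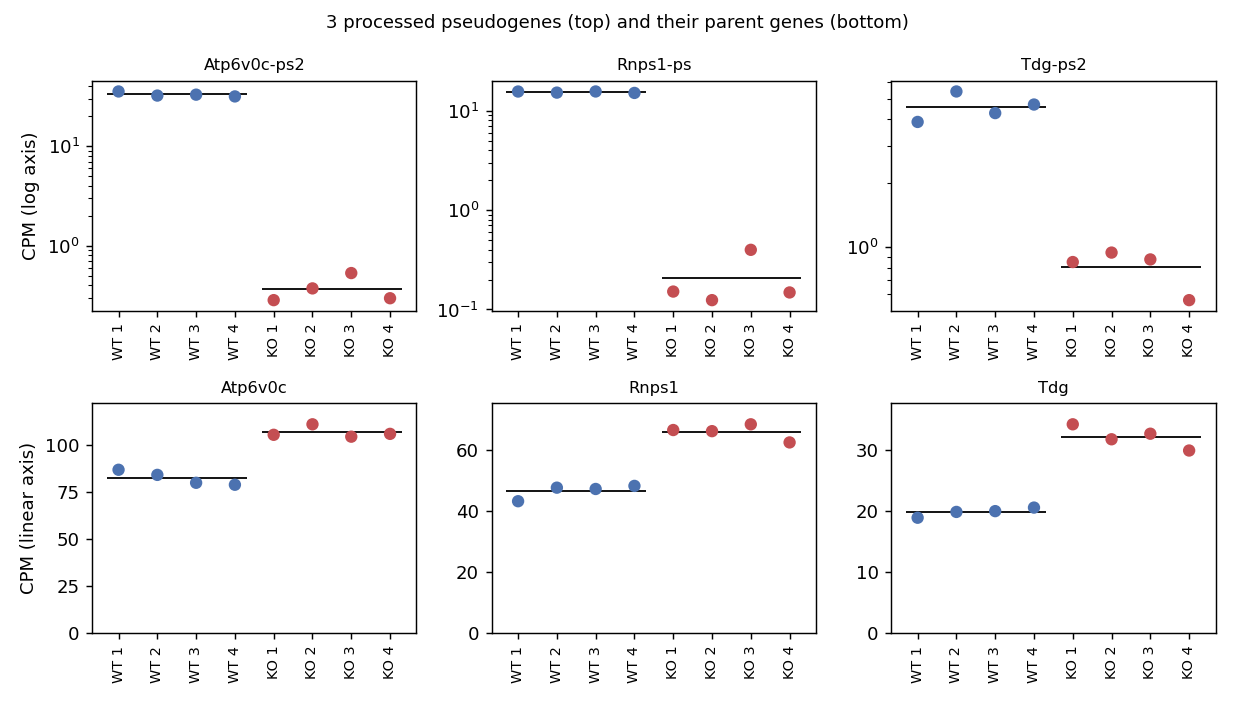
CPM of 3 processed pseudogenes (top, log axes) and their parent genes (bottom, linear axes from 0) in each WT (blue) and S1pr1 KO (red) library, with lines at group means. Every S1pr1 KO library is below every WT library for the pseudogene and above it for the parent.

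Gm28438, an unprocessed pseudogene on chromosome 1, had the lowest adjusted p. It was at 0.679, 0.604, 0.615 and 0.905 CPM in WT and 9.52, 6.38, 5.47 and 4.28 CPM in S1pr1 KO (log2 fold change 3.19, SE 0.27, edgeR adjusted p = 0.000676, 12 of 12 fits). For mt-Nd3, a complex I subunit gene of the mitochondrial genome, the level was at 5.36 to 7.49 CPM in WT and 0.531 to 0.870 CPM in S1pr1 KO (-3.16, SE 0.37, edgeR adjusted p = 0.00716, 11 of 12 fits). It was the 1 call among 15 mitochondrially encoded genes, of which 9 were above 0 and 6 below (median 0.15). The sum of that list went the other way, at 13690 to 14880 CPM in WT and 14960 to 18810 CPM in S1pr1 KO, with no overlap. The C3 KO libraries were at 7.38 to 11.4 CPM for Gm28438 and 0.361 to 1.71 CPM for mt-Nd3, on the S1pr1 KO side of both. Gm28438 (345 bases) and mt-Nd3 (348 bases) changed by near equal log2 amounts in opposite directions. Their means were 0.701 and 6.16 CPM in WT and 6.41 and 0.681 CPM in S1pr1 KO. Their sequences were not compared and read sharing was not tested, so both values are uncertain. Gbp2b, an interferon-induced guanylate binding protein (chromosome 3 from 142300608 to 142324940), had 28.0, 19.4, 15.6 and 19.8 CPM in WT and 0.549, 0.248, 0.478 and 0.534 CPM in S1pr1 KO (-5.50, SE 1.15, edgeR adjusted p = 0.0429, 4 of 12 fits). C3 KO 1 to 4 were at 0.347, 26.9, 0.527 and 17.5 CPM for this gene. Reads of Gbp2b can be shared with its close relative Gbp2, which was at 45.1 to 79.0 CPM in WT and 67.8 to 92.1 CPM in S1pr1 KO and did not pass (edgeR adjusted p = 0.158). Of 17 guanylate binding genes Gbp2b was the call, and of 29 interferon response genes 0 were called by edgeR, DESeq2 or limma voom, with 1 at an unadjusted p under 0.05.

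Some receptors of NK cells, mainly of the Ly49 family, and 3 genes of gamma delta T cells rose in S1pr1 KO. In whole tissue, fewer cells of a type and less RNA per cell cannot be told apart, here and below. Ly49 receptors, the Klra family with which mouse NK cells read MHC class I, had 4 of 12 members called higher and 0 lower, with 11 above 0 and a median log2 fold change of 1.34 against -0.001 for all genes tested. Of all genes tested, 0.821% were called higher, 0.534% lower, and 49.8% had a fold change above 0. Klra9 was at 0.983, 0.631, 0.644 and 1.26 CPM in WT and 3.81, 3.88, 4.04 and 4.04 CPM in S1pr1 KO (2.15, SE 0.33, edgeR adjusted p = 0.0145, 9 of 12 fits). Klra8 was at 2.01, 1.76, 0.937 and 1.73 CPM and then 8.56, 6.63, 4.89 and 7.09 CPM (2.07, SE 0.38, edgeR adjusted p = 0.0309, 6 of 12 fits). Neither gene's groups overlap, and S1pr1 KO 2 sits among the other knockout libraries. The pseudogenes Klra13-ps and Klra14-ps were the other 2 calls, each in 3 of 12 fits. These genes are similar copies, with Klra8 and Klra9 identical at 91.5% of 846 aligned bases, so reads can be shared. The number of Ly49 calls was 0 without WT 2, WT 4 or S1pr1 KO 4, 1 without WT 1, WT 3 or S1pr1 KO 1, 2 without S1pr1 KO 2, S1pr1 KO 3 or C3 KO 1, and 6 without C3 KO 4.

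Outside the Ly49 family, 1 of 15 NKG2 and other killer lectin receptors was called, against 1.35% of all genes tested. This was Klrc2, the activating NKG2C chain, at 1.85, 1.40, 0.703 and 1.12 CPM in WT and 4.60, 5.29, 3.80 and 5.22 CPM in S1pr1 KO (1.89, SE 0.40, edgeR adjusted p = 0.0440, 3 of 12 fits). The list had 13 members above 0 and a median of 0.80, but its summed level did not separate the groups (241 to 291 CPM in WT, 223 to 294 CPM in S1pr1 KO). Of 18 NK identity genes, Styk1, a kinase-like receptor of NK cells, rose from 0.933 to 1.17 CPM in WT to 2.08 to 2.44 CPM in S1pr1 KO (1.08, SE 0.18, edgeR adjusted p = 0.0240, 5 of 12 fits). Ncr1, the NKp46 receptor that marks NK cells, was at 1.38 to 5.22 CPM in WT and 6.587 to 8.501 CPM in S1pr1 KO without passing (edgeR adjusted p = 0.198). Of 16 cytotoxic effector genes edgeR called 0, with 4 at an unadjusted p under 0.05, DESeq2 3 and limma voom 2. Gzmb, a granzyme, was at 2.87 to 6.83 CPM in WT and 9.49 to 11.9 CPM in S1pr1 KO, and the pore former Prf1 was at 5.24 to 10.3 and 12.1 to 18.9 CPM, both with no overlap but with edgeR adjusted p of 0.0892 and 0.095.

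Among 12 gamma delta and innate-like T cell genes, 3 were called higher and 0 lower (median 0.15, 3 below 0), against 0.821% and 0.534% of all genes tested. The summed level of the list overlapped between the groups (290 to 590 CPM in WT, 382 to 602 CPM in S1pr1 KO). Scart1, a scavenger receptor found on gamma delta T cells (ENSMUSG00000025461, chromosome 7 from 139798180 to 139811058), had 2.39, 3.68, 3.08 and 2.63 CPM in WT and 14.1, 21.6, 10.6 and 15.3 CPM in S1pr1 KO. The lowest S1pr1 KO library was well above the highest WT library, and S1pr1 KO 2 was the highest. Scart1 rose by 2.39 (SE 0.27, edgeR adjusted p = 0.00716) and passed in all 12 fits that leave out a library. Trdc, the constant region of the delta chain, was at 1.12, 1.12, 1.46 and 0.850 CPM and then 3.71, 4.45, 2.71 and 4.45 CPM (1.75, SE 0.27, edgeR adjusted p = 0.0145, 9 of 12 fits). Trdv4, a delta variable segment, was at 0.351 to 0.631 and 1.20 to 1.56 CPM (1.60, SE 0.26, edgeR adjusted p = 0.0220, 7 of 12 fits). The C3 KO libraries were at 2.03 to 4.77 CPM for Scart1, near WT, and the direct comparison of S1pr1 KO with C3 KO missed the threshold (2.11, edgeR adjusted p = 0.0582). Of the 3 genes 1 remained called without WT 1, WT 4 or S1pr1 KO 4, and 2 without WT 2 or WT 3.

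Genes of the T cell receptor complex were lower. All 27 tested had a fold change below 0 (median -0.85, against 50.2% of all genes below 0). Of these, 2 passed, against 0.534% of all genes tested called lower, and none was higher. Cd4, the helper T cell co-receptor, was at 9.45, 7.30, 5.24 and 8.17 CPM in WT and 3.58, 3.35, 4.06 and 3.12 CPM in S1pr1 KO (-1.096, SE 0.19, edgeR adjusted p = 0.0276, 5 of 12 fits). Cd6, a T cell adhesion receptor, was at 5.03, 5.18, 3.25 and 5.95 CPM and then 1.46, 1.02, 2.60 and 0.742 CPM (-1.73, SE 0.35, edgeR adjusted p = 0.0389, 5 of 12 fits). Groups did not overlap for these 2, and S1pr1 KO 3 was the highest knockout library in both. DESeq2 called 14 of the 27 and limma voom 7, against 6.32% and 4.59% of all genes tested. In the fits that leave out 1 library, edgeR called 4 without S1pr1 KO 3, 3 without C3 KO 4 and none without WT 1, WT 2, WT 4, S1pr1 KO 1, S1pr1 KO 2 or S1pr1 KO 4. Summed over the list, WT stood at 136 to 222 CPM and S1pr1 KO 1 to 4 at 117, 93.7, 156 and 94.1 CPM, so that S1pr1 KO 3 was inside the WT range.

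B cell genes had no call by edgeR among 24 tested, with 22 below 0, a median of -1.05 and 18 at an unadjusted p under 0.05, while DESeq2 called 3 and limma voom 1. Cd79a, a signalling chain of the B cell receptor, was at 44.5, 37.2, 20.4 and 36.1 CPM in WT and 8.20, 7.602, 26.9 and 8.85 CPM in S1pr1 KO (-1.43, SE 0.47, edgeR adjusted p = 0.14). For Cd79a 3 S1pr1 KO libraries were below all WT libraries while S1pr1 KO 3 exceeded WT 3 and fell inside the spread of WT. Vpreb3, a precursor B cell chain, went the other way at 13.9 to 24.0 and 27.0 to 27.9 CPM (0.60, SE 0.19, edgeR adjusted p = 0.126).

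Homing and egress genes had 20 of 21 members below 0 (median -0.48), and the single call among them was S1pr4, given above. Ccr7, which guides naive T cells to lymph nodes, was at 18.3, 21.6, 9.55 and 13.0 CPM in WT and 6.99, 3.88, 9.77 and 3.38 CPM in S1pr1 KO (-1.38, SE 0.33, edgeR adjusted p = 0.0605). Cd69, which antagonises S1pr1 on activated lymphocytes, was at 3.87 to 9.05 and 1.93 to 4.41 CPM (-1.22, SE 0.30, edgeR adjusted p = 0.0685). Both overlap through S1pr1 KO 3, as for Cd79a. Markers of lymphoid tissue were measured beside these lists: the summed germinal centre and lymphoid stroma list was at 162 to 217 CPM in WT and 170 to 229 CPM in S1pr1 KO, and Cr2, the complement receptor of B cells and follicular dendritic cells, was at 4.04 to 12.3 CPM in WT and 1.72, 2.33, 9.19 and 3.47 CPM in S1pr1 KO. The thymocyte gene Ptcra was at most 0.0468 CPM in any of the 8 libraries and at 0 in all 4 S1pr1 KO libraries. The part of lymphoid tissue in the lymphocyte values was not tested.

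MHC genes had 2 calls among 22 of class I and 1 among 12 of class II, all lower, against 0.534% of all genes tested. H2-T24, a nonclassical class I gene (chromosome 17 from 36316587 to 36331452), had 88.3, 70.5, 71.9 and 72.1 CPM in WT and 30.9, 24.5, 40.8 and 34.6 CPM in S1pr1 KO (-1.21, SE 0.17, edgeR adjusted p = 0.0145, 10 of 12 fits). The C3 KO libraries were at 33.2 to 53.9 CPM, below every WT library. H2-T10, of the same region, fell by 0.66 (SE 0.15, edgeR adjusted p = 0.0486, 2 of 12 fits). H2-Oa, which with H2-Ob restrains class II peptide loading in B cells, was at 4.10 to 5.64 CPM in WT and 1.93 to 3.03 CPM in S1pr1 KO (-1.06, SE 0.18, edgeR adjusted p = 0.0220, 7 of 12 fits). Class I genes share reads among copies, so these values are uncertain.

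**Figure D3:**
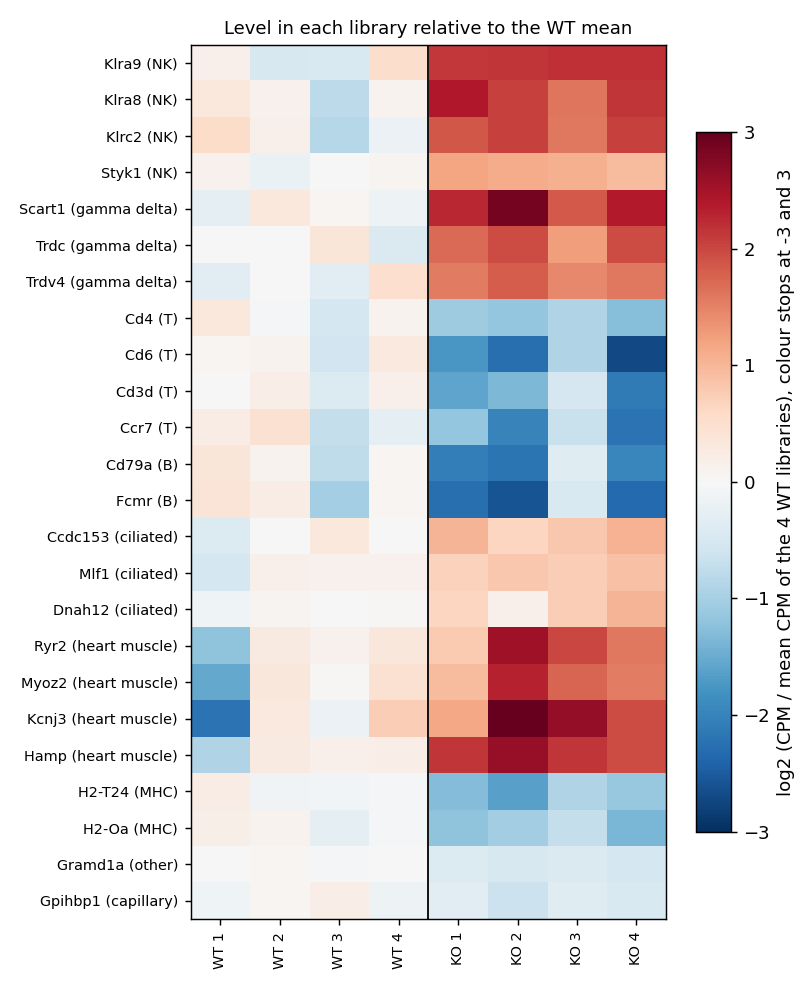
Level of 24 genes (rows, with the cell type or family in parentheses) in each library (columns), as log2 of CPM over the mean of the 4 WT libraries, blue for lower and red for higher. Scart1 and the Ly49 genes are red in all 4 S1pr1 KO libraries, the B cell genes Cd79a and Fcmr are near WT in S1pr1 KO 3, and the heart muscle genes are highest in S1pr1 KO 2 and lowest in WT 1.

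Genes of ciliated airway cells, which move mucus along the bronchi, were higher. All 43 tested had a fold change above 0 (median 0.52, range 0.16 to 0.90, against 49.8% of all genes above 0), 5 passed, and in 23 every S1pr1 KO library was above every WT library (6.16% of all genes). DESeq2 called 19 and limma voom 22, against 6.32% and 4.59% of all genes tested, of which edgeR called 0.821% higher. Summed over the list, WT stood at 2418 to 3203 CPM and S1pr1 KO 1 to 4 at 3589, 3143, 3301 and 4016 CPM. By this sum S1pr1 KO 2 was inside the WT range. Members of a list were measured in the same libraries and are not independent. Ccdc153, a component of the nexin-dynein regulatory complex of cilia (chromosome 9 from 44151973 to 44158603), had 43.2, 57.7, 71.7 and 56.5 CPM in WT and 117, 89.2, 99.7 and 119 CPM in S1pr1 KO (0.89, SE 0.16, edgeR adjusted p = 0.0295, 6 of 12 fits). Mlf1 was at 6.55, 10.5, 10.4 and 10.3 CPM and then 15.2, 16.5, 15.6 and 17.3 CPM (0.78, SE 0.15, edgeR adjusted p = 0.0357, 4 of 12 fits). Dnah12, an inner arm dynein heavy chain, was at 26.0 to 30.2 CPM in WT and 44.5, 31.9, 47.7 and 57.6 CPM in S1pr1 KO (0.67, SE 0.14, edgeR adjusted p = 0.0458, 2 of 12 fits). In Dnah12 S1pr1 KO 2 was the lowest knockout library, just above WT. The C3 KO libraries were at 32.8 to 41.6 CPM for Dnah12, above every WT library. They overlapped WT at 49.6 to 74.6 CPM for Ccdc153 and at 10.2 to 14.5 CPM for Mlf1. Cfap43 (0.85, SE 0.19) and Ccdc113 (0.64, SE 0.14) were the other 2 calls, with edgeR adjusted p of 0.0488 and 0.0477, in 2 and 3 of the 12 fits.

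Foxj1, the master transcription factor of motile cilia, was at 69.1, 109, 130 and 113 CPM in WT and 154, 147, 139 and 175 CPM in S1pr1 KO, with no overlap but without passing (0.55, SE 0.24, edgeR adjusted p = 0.247). Outside the list the radial spoke gene Rsph10b (0.84, SE 0.17), the central apparatus gene Spag16 (0.77, SE 0.16), the dynein gene Dnah7c (1.08, SE 0.24) and the transition zone gene Rpgrip1l (0.76, SE 0.14) rose, with edgeR adjusted p of 0.0421, 0.0406, 0.0486 and 0.0305. They passed in 4, 3, 2 and 5 of the 12 fits. They were chosen after their values were seen. No ciliated list gene passed without WT 1, WT 2, WT 4, S1pr1 KO 1, S1pr1 KO 3 or S1pr1 KO 4. Without WT 3 the count was 1, without S1pr1 KO 2 it was 3, without C3 KO 1 or 2 it was 2, and without C3 KO 4 it was 14.

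The promoters of the called ciliated genes were read for the core of the X-box, GTTGCC, to which RFX factors of ciliary genes bind. The core motif, searched on both strands, lay in 3 of the 5 called genes and in 20 of 34 ciliated list genes with a promoter entry (58.8%), against 3821 of 27025 genes (14.1%). A longer form, GTTGCCA, which contains it and was searched first, lay in 1 of the 5 called genes, 11 of the 34 (32.4%) and 1358 of all (5.02%). Those with the core motif are shown from 250 bases before to 50 after the start (RefSeq, GRCm38.p6), with the core motif in capitals: Ccdc153 at chromosome 9 from 44240427 to 44240726, Ccdc113 at chromosome 8 from 95533850 to 95534149 and Mlf1 at chromosome 3 from 67373847 to 67374146, all on the plus strand.
Ccdc153: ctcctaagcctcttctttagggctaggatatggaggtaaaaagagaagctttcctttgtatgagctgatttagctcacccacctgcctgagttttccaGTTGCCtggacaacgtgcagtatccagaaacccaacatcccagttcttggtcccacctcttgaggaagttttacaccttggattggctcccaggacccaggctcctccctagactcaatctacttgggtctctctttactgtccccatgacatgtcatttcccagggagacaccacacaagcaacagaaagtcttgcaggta
Ccdc113: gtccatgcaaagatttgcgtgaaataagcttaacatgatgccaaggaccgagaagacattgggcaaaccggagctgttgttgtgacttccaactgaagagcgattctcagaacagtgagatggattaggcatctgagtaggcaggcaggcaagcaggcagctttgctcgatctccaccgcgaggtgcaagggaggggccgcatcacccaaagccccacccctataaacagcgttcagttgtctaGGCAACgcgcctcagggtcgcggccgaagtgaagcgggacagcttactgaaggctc
Mlf1: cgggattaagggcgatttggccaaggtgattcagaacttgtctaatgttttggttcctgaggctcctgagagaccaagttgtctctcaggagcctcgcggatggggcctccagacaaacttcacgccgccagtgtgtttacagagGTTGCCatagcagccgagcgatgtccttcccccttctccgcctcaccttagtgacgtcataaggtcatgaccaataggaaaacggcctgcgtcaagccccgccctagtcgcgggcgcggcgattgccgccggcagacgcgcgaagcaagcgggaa
These matches describe letters in this window, not bound sites.

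Club and secretory genes of the airway had 0 of 28 called by edgeR, with 24 above 0, a median of 0.67, 12 at an unadjusted p under 0.05, and 3 called by DESeq2 and 2 by limma voom. Gsto1, a glutathione transferase, was at 57.6, 74.0, 77.0 and 69.1 CPM in WT and 83.8, 130, 137 and 202 CPM in S1pr1 KO, with no overlap (0.99, SE 0.25, edgeR adjusted p = 0.0728). Pigr, the receptor that carries IgA across epithelium, was at 30.0 to 46.3 and 64.4 to 80.7 CPM (0.92, SE 0.34, edgeR adjusted p = 0.182). The most abundant club cell transcript, Scgb1a1, did not move with them, at 18180 to 27770 CPM in WT and 12580 to 24030 CPM in S1pr1 KO. Alveolar type 1 genes had 0 calls of 20 by edgeR (median -0.003) and alveolar type 2 genes 1 of 23 (median -0.02), Slc27a3, a fatty acid transporter that fell by 0.46 (SE 0.09, edgeR adjusted p = 0.0378, 4 of 12 fits).

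**Figure D4:**
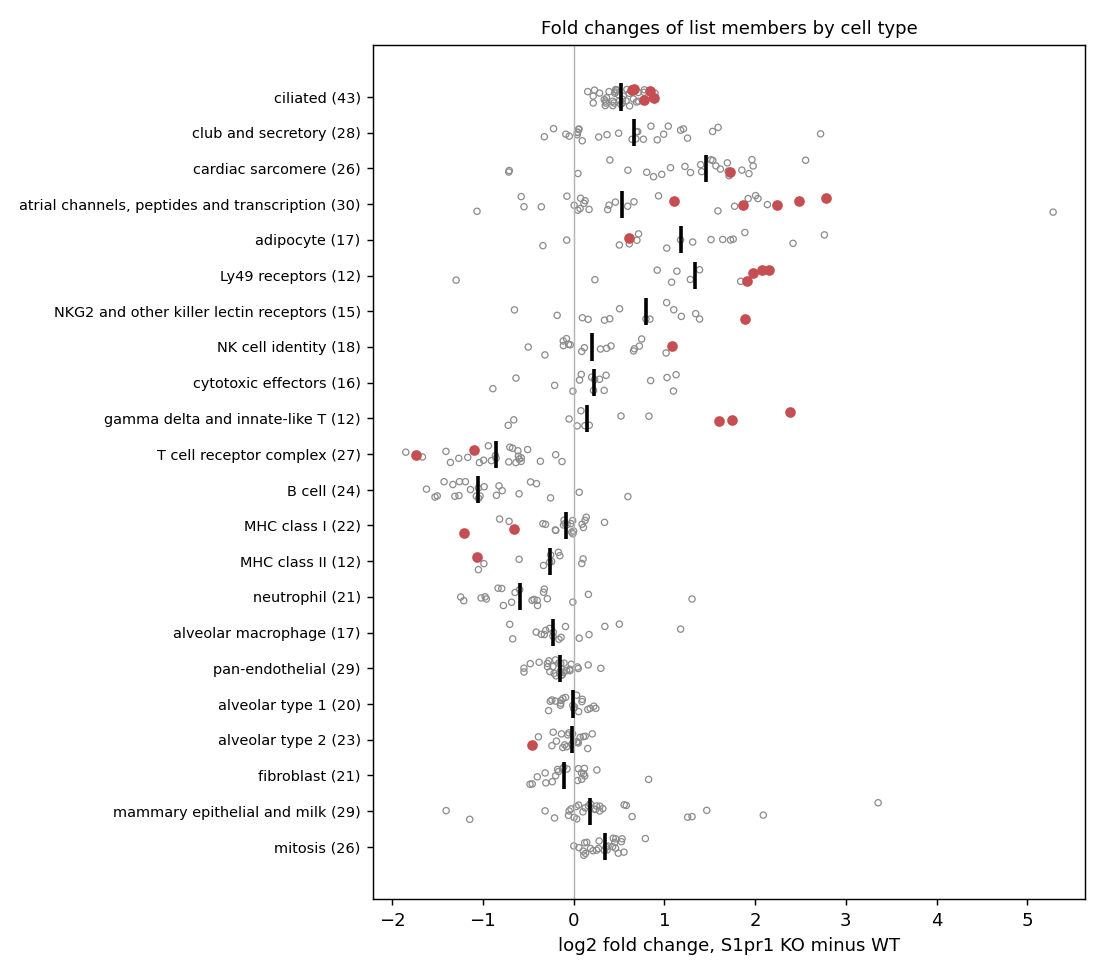
Log2 fold change, S1pr1 KO minus WT, of every tested member of 22 lists (points, the number tested in parentheses), with called genes filled red, others open, and black bars at list medians. Ciliated genes all lie above 0, T cell receptor complex genes all lie below 0, and alveolar lists centre on 0.

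Heart muscle genes, normally active also in the walls of mouse pulmonary veins, were higher, with a wide spread between libraries. Among 26 cardiac sarcomere genes 24 were above 0 (median 1.46), 1 passed, and 21 had an unadjusted p under 0.05. DESeq2 called 13 of them and limma voom 5. Myoz2, a Z-disc protein, was at 1.38, 5.08, 4.10 and 5.51 CPM in WT and 7.72, 19.9, 13.6 and 11.6 CPM in S1pr1 KO (1.72, SE 0.37, edgeR adjusted p = 0.0464, 1 of 12 fits). Nppa, the atrial natriuretic peptide, was at 0.679, 3.48, 1.17 and 4.36 CPM in WT and 7.80, 329, 23.5 and 15.4 CPM in S1pr1 KO and did not pass (5.28, SE 1.27, edgeR adjusted p = 0.0619). WT 1 was lowest and S1pr1 KO 2 highest in both, and no groups overlapped.

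The 30 atrial genes had 5 calls, all higher, against 0.821% of all genes tested, and a median of 0.53. Ryr2, the calcium release channel of heart muscle, was at 5.87, 16.2, 14.8 and 16.9 CPM in WT and 23.2, 78.2, 53.9 and 40.0 CPM in S1pr1 KO (1.86, SE 0.39, edgeR adjusted p = 0.0436, 4 of 12 fits). Hamp, hepcidin, which is also made in heart, was at 0.866, 1.98, 1.82 and 1.86 CPM and then 7.21, 9.91, 7.22 and 6.29 CPM (2.24, SE 0.32, edgeR adjusted p = 0.0145, 10 of 12 fits). Calls in potassium channel genes were Kcnj3 (2.79, SE 0.61) and Kcng2 (2.48, SE 0.55), with edgeR adjusted p of 0.0486 and 0.0482, in 2 and 1 of the 12 fits. The summed sarcomere list was at 803.4 to 1535 CPM in WT and 1649, 4457, 2521 and 2059 CPM in S1pr1 KO. Other tissues moved with S1pr1 KO 2: its summed adipocyte list was 1441 CPM against 354 to 611 CPM in the other 7 libraries, and Adipoq, a fat cell hormone, was at 32.9 against 0.702 to 8.69 CPM. The skeletal muscle list was high in WT 2 and S1pr1 KO 2 (540 and 537 CPM) and at 88.4 to 162 CPM elsewhere. The part of heart, fat or muscle carried with the lung in these values was not tested. Without S1pr1 KO 2, 0 sarcomere and 2 atrial genes passed, and without WT 1 the counts were 0 and 2. They were 1 and 4 without S1pr1 KO 1, 0 and 2 without WT 2, WT 3 or S1pr1 KO 3, 0 and 0 without WT 4 or S1pr1 KO 4, 0 and 2 without C3 KO 1, 0 and 3 without C3 KO 2 or C3 KO 3, and 3 and 6 without C3 KO 4.

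Endothelium is a main site of S1pr1 expression in lung. Of 29 pan-endothelial genes edgeR called 0 (median -0.15, 25 below 0, 7 at an unadjusted p under 0.05), while DESeq2 and limma voom called 2 each. Over all genes tested, 18% had such a p, and DESeq2 called 6.32% and limma voom 4.59%. The summed list was at 12480 to 13410 CPM in WT and 10750 to 11860 CPM in S1pr1 KO, with no overlap. Plvap, which forms the diaphragms of fenestrae and caveolae, was at 938, 883, 761 and 860 CPM in WT and 675, 579, 598 and 504 CPM in S1pr1 KO, with no overlap (-0.55, SE 0.17, edgeR adjusted p = 0.127). Of 27 genes of capillary, arterial, venous and lymphatic endothelium, Gpihbp1, which holds lipoprotein lipase on capillaries, was called. It was at 185, 210, 230 and 182 CPM in WT and 161, 128, 156 and 146 CPM in S1pr1 KO (-0.45, SE 0.09, edgeR adjusted p = 0.0440, 3 of 12 fits), with S1pr1 KO 2 the lowest. Thbs3, a matricellular thrombospondin and the 1 call of 29 elastic fibre and matricellular genes, was at 136, 109, 120 and 114 CPM and then 73.7, 69.4, 82.3 and 86.5 CPM (-0.62, SE 0.09, edgeR adjusted p = 0.0145, 10 of 12 fits).

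Lists for tumour and proliferating cells had no call. Mammary epithelial and milk genes (29 tested, 22 above 0, median 0.18) had 8 at an unadjusted p under 0.05, and DESeq2 called 1 and limma voom 0. Over all genes tested these shares were 18%, 6.32% and 4.59%. Krt5 and Krt14, keratins of basal cells in mammary gland and airway, were highest in WT 2, at 39.6 and 12.04 CPM, and at most 8.32 and 3.83 CPM in S1pr1 KO. Which tissue they came from was not tested. Csn2, the milk protein beta-casein, was at 0.0549 to 0.117 CPM in WT and 0.189 to 0.683 CPM in S1pr1 KO, with no overlap but at levels of few reads (log2 fold change 2.09, SE 0.95, edgeR adjusted p = 0.273). The luminal keratins Krt8 and Krt18 were at 164 to 193 and 77.1 to 99.4 CPM in WT and 181 to 260 and 81.2 to 116 CPM in S1pr1 KO, and the oestrogen receptor Esr1 was at 2.99 to 3.49 and 3.48 to 4.67 CPM. Krt8, Krt18 and Esr1 did not pass (edgeR adjusted p of 0.239, 0.326 and 0.226), and their groups overlap. Mitosis genes (26 tested, all 26 above 0, median 0.35) had 3 at an unadjusted p under 0.05, and DESeq2 and limma voom called 0. Their sum was 107 to 170 CPM in WT and 142, 123, 222 and 264 CPM in S1pr1 KO 1 to 4, so that 2 knockout libraries were above WT and 2 were not. Mki67, a marker of cycling cells, was at 15.9 to 29.2 CPM in WT and 21.8, 22.1, 38.6 and 43.1 CPM in S1pr1 KO (0.43, SE 0.24, edgeR adjusted p = 0.372).

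Of the 52 lists, 33 had no edgeR call, among them neutrophil (21 tested, median -0.59, 1 at an unadjusted p under 0.05), alveolar macrophage (17, -0.22, 3), complement (34, -0.02, 4) and red cell genes (17, 0.24, 0), of which DESeq2 called 1, 0, 0 and 0 and limma voom 0 of each. All 26 immediate early genes were below 0 (median -0.59, 0 called by edgeR, 4 at an unadjusted p under 0.05, 0 by DESeq2 and 1 by limma voom), and their sum did not separate the groups. It was 8227, 8017, 6096 and 4365 CPM in WT and 7828, 3243, 2575 and 2757 CPM in S1pr1 KO. Orm2, an acute-phase plasma protein, fell from 2.14 to 3.24 CPM in WT to 0.124 to 0.372 CPM in S1pr1 KO (-3.33, SE 0.68, edgeR adjusted p = 0.0421, 4 of 12 fits), while C3 KO libraries were at 0.205 to 2.89 CPM.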

How the data were processed

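RNA from whole mouse lung was sequenced in 12 libraries, and 8 of them (4 WT, 4 S1pr1 KO) were compared. The deposited table held whole-number read counts for 56748 genes, with positions on GRCm39. Per the submitters' processing notes, CASAVA and STAR (no versions) and GRCm39 (mm39) were used. Which program counted reads, with what strand setting and annotation, is not given in the sources used here. The deposited FPKM values, made by the authors per kilobase of gene length, served for levels between genes and an alternative. Groups came from the genotype labels, and replicates were numbered in order of deposition. No column belonged to other samples.

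Counts were tested with edgeR 4.0.16 (R 4.3.3): filterByExpr left 20229 genes, libraries were TMM-scaled, and the quasi-likelihood fit used all 12 libraries with 3 group means (9 residual degrees of freedom). P-values were Benjamini-Hochberg adjusted over all genes tested, with a threshold of 0.05. A called gene passed it. CPM are relative to TMM-scaled totals, and the SE is the fold change over the square root of F. The fit was tested on simulated data. Alternatives were DESeq2 1.42.0, limma 3.58.1 (voom, and log2 FPKM with pseudocounts of 1 and 0.1), other scalings and filters, the 8 libraries alone, and leaving out each library.

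The rule for named genes took the S1P receptors, up to 15 higher and 15 lower coding genes of largest change with no overlap and a mean of at least 1 CPM, called members and the 4 members of lowest p of each of 52 lists, the 3 noncoding genes of lowest p in each direction and the calls on chromosome 3. The text uses part of them, and some called genes are not reported here. Outside the rule, and chosen after their values were seen, are Adipoq, Cr2, Krt5, Krt14, Mki67, Csn2, Krt8, Krt18, Esr1, Nppa, Pecam1, Scgb1a1, Sftpc, Wap, Ptcra, Frrs1, Tpm3-rs7, Gramd1a, Sgk1, Wdfy1, Gm8730, Gm15459, 4 ciliary genes so marked and the 3 pseudogenes with their parents. Members and lists were chosen with earlier results of these data known. Of 1040 listed genes 12 were not in the table and 974 were tested. Sequences came from GENCODE vM21 and RefSeq tables on GRCm38, with gene identifiers matched and coordinates not converted.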

Additional observations from a re-analysis of the deposited data

Results flagged for a closer look

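In each group of 4 libraries, the highest or lowest value was compared with the rest for the genes given by library, and 15 of 172 groups had a library far from the other 3 (Dixon's test at the 95% level). Chance flags about 1 in 20 independent groups. Some of these genes were chosen after their values were seen, and genes of the same libraries are not independent. The share flagged therefore cannot be judged against that rate. S1pr1 KO 3 stood apart at 5 genes. It was at 26.9 CPM for Cd79a and 8.69 CPM for Fcmr, the IgM Fc receptor of B cells, both above the other S1pr1 KO libraries (at most 8.85 and 2.50 CPM). It was also high for Frrs1 (15.01 CPM), Krt14 (3.83 CPM) and Rnps1-ps (0.398 CPM). WT 1 stood apart at 5 genes, high for H2-T24 (88.3 CPM) and S1pr2 (69.5 CPM) and low for Hamp (0.866 CPM), Mlf1 (6.55 CPM) and Spag16 (10.3 CPM). S1pr1 KO 2 was far above the rest of its group for S1pr1 (366 CPM) and Nppa (329 CPM). WT 2 was high for the keratins Krt5 (39.6 CPM) and Krt14 (12.04 CPM). S1pr1 KO 4 was low for S1pr4 (14.1 CPM, against 17.6 to 18.1 CPM in the other 3).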

How the results depend on the processing

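Over other settings the 274 calls became 1279 with DESeq2 (746 higher, 533 lower), 928 with limma voom (568 higher, 360 lower), 171 with limma on log2(FPKM + 1) (88 higher) and 150 on log2(FPKM + 0.1) (71 higher). With the 8 compared libraries alone 174 genes were lower. The share of higher calls, 60.6% in the main fit, was 51.5% and 47.3% in the 2 FPKM fits. RLE scaling and no count filter each gave 268 calls, a filter of 1 CPM 281 and upper-quartile scaling 319, all within 1.5 times. Leaving out 1 library at a time gave 2 to 571 calls, 2 to 347 higher and 0 to 224 lower. The cause of these differences was not tested. None of the 274 calls changed direction in any setting that tested it, and the 79 called genes named by the rule or added to it kept direction too. Of these, DESeq2 called 79 and limma voom 75, the 4 lost being ENSMUSG00000120078, Selenbp2, Tmod4 and Tpm3-rs7. With the 8 libraries alone, calls lost included Ryr2, Myoz2, Kcnj3, Kcng2, Dnah12, Ccdc113, Dnah7c, Gpihbp1 and H2-T10. Of 168 such genes not called, 3 changed sign without 1 library: S1pr2 (0.06 without WT 1), S1pr3 (0.06 without WT 1, 0.02 without S1pr1 KO 2, 0.01 without S1pr1 KO 4) and S1pr5 (-0.17 without WT 3, -0.03 without S1pr1 KO 3). No paired analysis was possible because the labels carry no replicate numbers and numbers given in order of deposition pair nothing. Genes under about 1 CPM rest on few reads per library, which limits the precision of their fold changes.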
